A study of Mus musculus with 22 samples.

Results

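The circadian clock output genes described here were 10 genes listed by symbol, *Per1*, *Per2*, *Per3*, *Dbp*, *Nr1d1*, *Nr1d2*, *Arntl*, *Ciart*, *Tef* and *Bhlhe41*, and read from the 55385 gene rows of a count table. All 10 were protein-coding genes outside the segment that Ts66Yah mice carry in an additional copy, and all 10 had enough reads to be tested in every comparison. RNA-Seq had been performed on 2 brain regions, hippocampus (HIP) and entorhinal cortex (EC), from 11 male mice aged 5 to 6 months, in 22 libraries. The wt group was 5 wild-type littermates (replicates 1 to 5) and the Ts66Yah group was 6 mice (replicates 1 to 6), with 1 library of each region from every mouse. Ts66Yah mice carry a freely segregating minichromosome that holds distal Mmu16 (mouse chromosome 16), a segment with many orthologues of genes on human chromosome 21, without the centromeric Mmu17 genes of the parental Ts65Dn minichromosome. The line descends from a single founder male, so all Ts66Yah animals share 1 rearranged chromosome. The questions asked of these genes were whether their levels varied between animals, whether they did so alike in both regions, and whether they differed between genotypes. The hour at which tissue was taken was not given in the sources used here, so no level could be set against a time of day.

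In mammalian cells the clock is a loop of transcription with a period of about a day. The activators CLOCK and BMAL1, the latter encoded by *Arntl*, bind E-box motifs and switch on the period genes *Per1*, *Per2* and *Per3*, whose proteins repress that same activation. BMAL1 also switches on the nuclear receptor genes *Nr1d1* and *Nr1d2*, whose products repress *Arntl* through RORE motifs, so that *Arntl* peaks when most of the others are low. *Dbp* and *Tef* encode PAR bZIP factors that bind D-box motifs and carry the rhythm to further genes. *Ciart* and *Bhlhe41* encode repressors of the CLOCK and BMAL1 complex. Brain regions outside the master clock of the hypothalamus have rhythms of their own, and *Per1* is also known as a gene induced by neuronal activity and by glucocorticoids.

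Promoters of these genes were searched for the 3 motifs named above, and 3 of the windows are printed below. Windows of 250 bases before to 50 bases after a RefSeq start site (GRCm38.p6) were found for 9 of the 10 genes, in 12 windows, with no window for *Per2*. Both strands were searched for the E-box CACGTG, the D-box TTANGTAA and the RORE, here AAGTAGGTCA with any base allowed in place of the first G, written here in capitals. The E-box stood in 4 of the 9 genes, *Per1*, *Ciart*, *Tef* and *Bhlhe41*, against 8.09% of all genes with a window. The D-box stood in 1 of the 9, *Per3*, against 2.72% of all genes, and the RORE in 1 of the 9, *Arntl*, against 0.259%. The windows of *Dbp*, *Nr1d1* and *Nr1d2* held none of the 3 motifs. A match is a string of letters in the window and not a measured binding site. *Ciart* is shown because its window held 3 E-boxes, *Per3* because it held 2 D-boxes, and the downstream start of *Arntl* because its RORE began 28 bases after the start site. They lie at chr3:95882179-95882478 on the minus strand, chr4:151044616-151044915 on the minus strand and chr7:113207261-113207560 on the plus strand, and each sequence is written 5′ to 3′ along its gene.
Ciart: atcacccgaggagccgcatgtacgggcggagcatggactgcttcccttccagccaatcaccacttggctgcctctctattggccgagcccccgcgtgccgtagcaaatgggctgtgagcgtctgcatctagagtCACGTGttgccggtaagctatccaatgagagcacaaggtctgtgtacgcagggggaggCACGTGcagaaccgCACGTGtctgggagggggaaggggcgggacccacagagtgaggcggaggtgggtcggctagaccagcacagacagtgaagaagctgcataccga
Per3: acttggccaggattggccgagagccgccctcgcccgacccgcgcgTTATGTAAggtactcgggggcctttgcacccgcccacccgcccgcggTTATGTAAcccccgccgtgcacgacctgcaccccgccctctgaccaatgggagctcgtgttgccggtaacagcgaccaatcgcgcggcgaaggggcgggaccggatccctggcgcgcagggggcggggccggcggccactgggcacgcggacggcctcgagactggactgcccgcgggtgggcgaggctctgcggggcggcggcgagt
Arntl: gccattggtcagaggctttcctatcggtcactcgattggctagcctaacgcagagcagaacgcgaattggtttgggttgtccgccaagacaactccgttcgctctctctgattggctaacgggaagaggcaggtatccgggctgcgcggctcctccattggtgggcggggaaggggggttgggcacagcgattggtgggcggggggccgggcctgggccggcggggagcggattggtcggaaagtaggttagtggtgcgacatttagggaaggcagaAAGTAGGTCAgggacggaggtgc

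Libraries held between 25.9 and 50.1 M counted reads (median 34.7 M), and the fewest reads of a clock output gene in any library were 135, for *Ciart*. Markers of the labelled regions were expressed, and 6 of 6 hippocampal markers were lower and 5 of 6 cortical markers higher in EC than in HIP in the edgeR test. Choroid plexus markers (7 genes), none of them at 0, summed to 116 to 3360 CPM (counts scaled to the library total) in wt HIP, 799 to 2930 in Ts66Yah HIP, 12.2 to 46.3 in wt EC and 12.8 to 18.2 in Ts66Yah EC. The libraries also differed in how GC-rich genes stood against GC-poor ones. This contrast is the median log2 deviation of the fifth of genes richest in GC minus that of the fifth poorest, and it ran from -0.30 in EC of wt replicate 4 to 0.32 in EC of wt replicate 5. *Dbp* and *Per1* are among the GC-rich genes, at the 98.0 and 94.8 percentiles of all genes with a value, and *Nr1d2* among the GC-poor, at 12.4. All levels below are CPM with totals scaled by TMM factors (a normalization for library composition). Per-length levels are the same values per kilobase of exon (RPKM).

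All 10 genes were expressed in both regions, and *Tef* stood highest. In HIP the per-length order was *Tef* at 53.2 ± 4.35 RPKM (mean ± SD, n = 11 animals), *Nr1d1* at 31.9 ± 3.11, *Nr1d2* at 15.8 ± 2.29, *Per1* at 12.5 ± 1.85 and *Dbp* at 9.08 ± 2.16. *Per2*, *Bhlhe41*, *Arntl*, *Per3* and *Ciart* followed between 4.68 ± 0.862 and 3.58 ± 0.765 RPKM, and the ranges of each neighbour in that order overlapped. In EC the first 5 genes kept their order, from *Tef* at 63.3 ± 5.86 RPKM to *Dbp* at 11.1 ± 3.36. *Ciart* came next at 6.20 ± 1.12 RPKM and *Per3* last at 2.28 ± 0.470. In both regions *Tef* and *Nr1d1* stood clear of each other and of the rest, whereas *Nr1d2* overlapped *Per1*, and *Per1* overlapped *Dbp*.

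Between regions, 8 of the 10 genes changed, 6 of them higher and 2 lower in EC than in HIP, with the animal kept as a block. This share has to be read against 68.4% of the 19074 genes tested that were called between regions, 33.4% higher and 35% lower (8 of 10 and 70.9% at an unadjusted p under 0.05). *Ciart*, a repressor of CLOCK and BMAL1, rose most, from 5.10 to 10.5 CPM in HIP to 8.98 to 18.1 CPM in EC, a log2 difference of 0.79 (SE 0.068, edgeR quasi-likelihood test, adjusted p = 2.4e-08). *Per3* fell most, from 22.9 to 48.5 CPM in HIP to 15.7 to 29.0 CPM in EC, a log2 difference of -0.75 (SE 0.063, adjusted p = 2.0e-08). Every one of the 11 animals had more *Ciart* and less *Per3* in EC than in HIP, although the ranges over animals overlapped. The period genes thus did not move together between regions, since *Per1* was higher in EC by 0.28 on the log2 scale (adjusted p = 0.000544) and *Per2* did not pass the test, at -0.11 (adjusted p = 0.110). *Nr1d1*, *Nr1d2*, *Tef* and *Dbp* were higher in EC by 0.25 to 0.40, and *Bhlhe41* was lower by 0.41. *Arntl* differed by -0.02 with a 95% interval of -0.10 to 0.06. In the 5 wt animals alone *Per1* (0.24, adjusted p = 0.0544) and *Dbp* (0.15, adjusted p = 0.364) did not pass, and without the animal block *Dbp* did not pass (0.29, adjusted p = 0.0776). In bulk tissue, a different number of cells that express a gene and a different level per cell cannot be told apart.

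**Figure D1:**
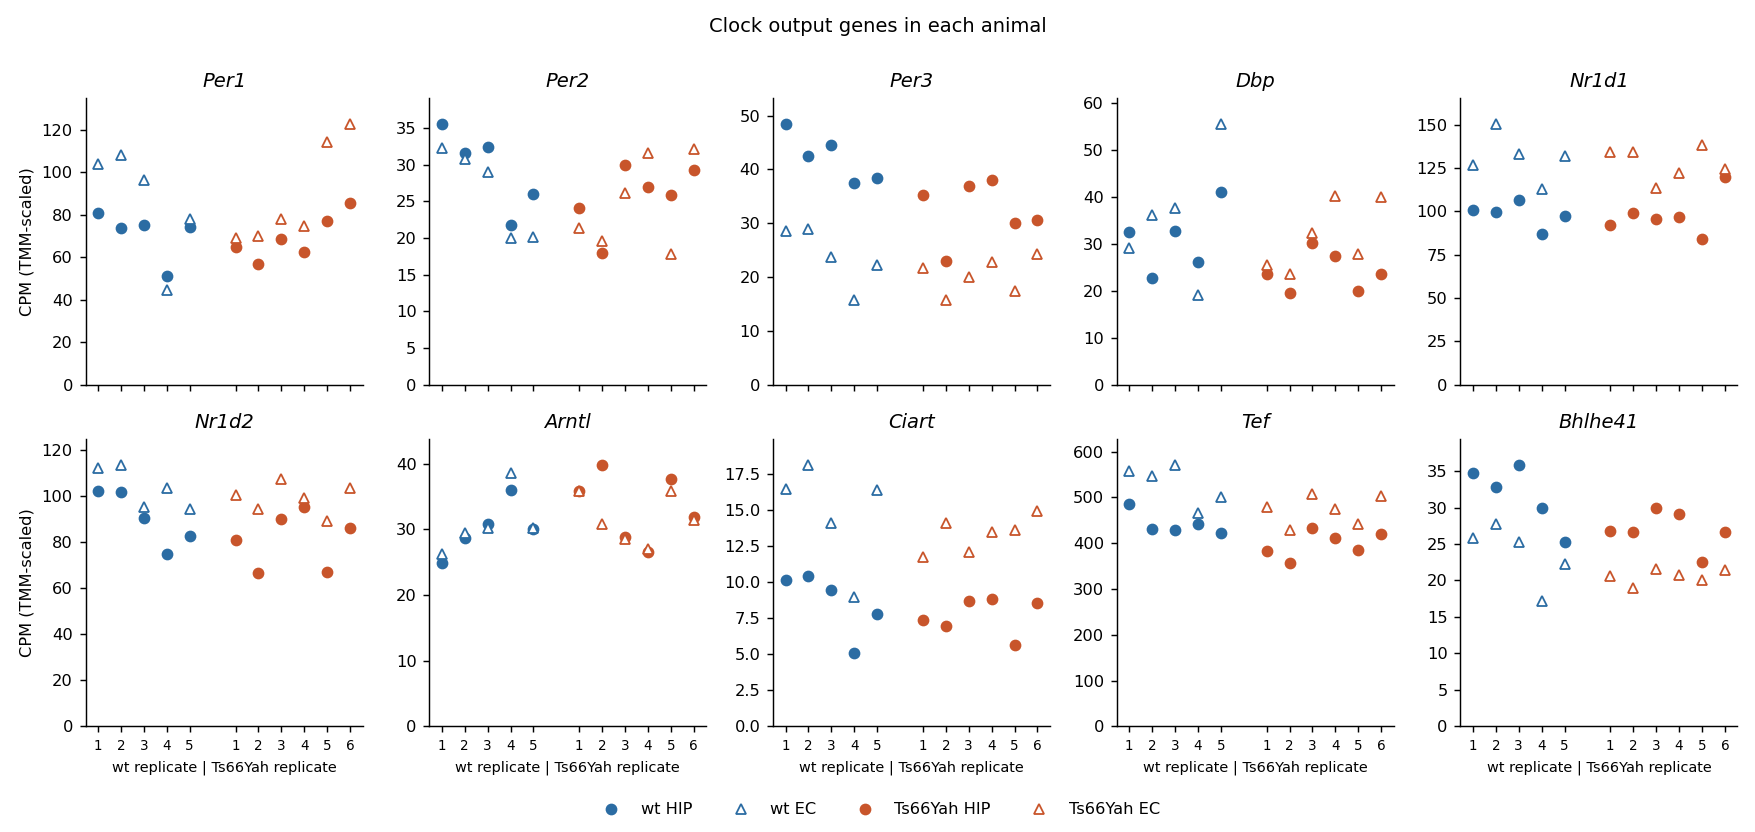
Level of each clock output gene in CPM (vertical axes from 0) in every animal, with filled circles for HIP and open triangles for EC, blue for wt and orange for Ts66Yah. *Per1*, *Per2*, *Ciart* and *Dbp* varied widely between animals of 1 genotype, wt replicate 4 was low for *Per1* in both regions, and *Ciart* lay higher and *Per3* lower in EC than in HIP.

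Animals of the same genotype differed in 6 of the 10 genes, *Per1*, *Arntl*, *Per2*, *Ciart*, *Per3* and *Dbp*, where 7.35% of the 19074 genes tested were called. The test compared the differences between animals that HIP and EC shared with those that they did not share, with genotype and region kept as separate terms (edgeR quasi-likelihood F test, adjusted over all genes). The median F was 4.82 over the 10 genes and 1.66 over all genes, and 9 of the 10 genes had an unadjusted p under 0.05, against 26.1% of all genes. The 10 genes had been chosen with earlier results of these data known, so these shares are not those of an independent list. The 2 libraries of an animal share the animal and the moment of its death, which cannot be told apart. The calls were not equally stable. Over the main fit and 18 alternatives, *Per1* was called in 19 of 19, *Per2* in 18, *Arntl* in 17, *Ciart* in 16, *Per3* in 11 and *Dbp* in 9. Within 1 genotype the counts were 3 of 10 among the 5 wt animals (*Per1*, *Per2* and *Ciart*), where 421 genes were called in all. Among the 6 Ts66Yah animals the count was 1 of 10 (*Per1*), where 572 genes were called in all.

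*Per1* (GRCm38 chr11:69095217-69109960, plus strand), the period gene most readily induced by signals from outside the clock, was measured in HIP at 80.9, 73.9, 75.1, 51.2 and 74.3 CPM in wt replicates 1 to 5. The Ts66Yah HIP libraries had a lowest, median and highest value of 56.8, 66.8 and 85.6 CPM. In EC the wt replicates had 103.8, 108.1, 96.6, 44.9 and 77.9 CPM, and the Ts66Yah libraries 69.0, 76.3 and 123. Replicate 4 was the lowest wt animal in both regions, Ts66Yah replicate 6 was the highest animal in both, and the genotypes overlapped. The highest EC library had 2.74 times the *Per1* of the lowest, and the highest HIP library 1.67 times. The differences between animals passed the test (F = 10.7, adjusted p = 0.00177) and also did so in wt animals alone (adjusted p = 0.0393) and in Ts66Yah animals alone (adjusted p = 0.0159).

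*Arntl* (chr7:113207465-113314126, plus strand), which encodes the activator BMAL1, was measured in HIP at 24.9, 28.7, 30.8, 35.9 and 30.0 CPM in wt replicates 1 to 5, and at a lowest, median and highest value of 26.5, 33.8 and 39.7 CPM in Ts66Yah. In EC the wt replicates had 26.3, 29.5, 30.2, 38.6 and 30.3 CPM and the Ts66Yah libraries 27.0, 31.1 and 35.8. Here wt replicate 4, the wt animal with the least *Per1*, was the highest wt animal in both regions, and wt replicate 1 was the lowest in both. The spread between animals was narrower than that of *Per1*, 1.59-fold from lowest to highest in HIP and 1.47-fold in EC, and passed the test (F = 8.43, adjusted p = 0.00526). Neither genotype passed alone, with adjusted p = 0.0607 in wt and 0.0888 in Ts66Yah.

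*Per2* (chr1:91415982-91459324, minus strand), the period gene whose protein is a core repressor of the loop, had 35.6, 31.5, 32.4, 21.8 and 26.1 CPM in HIP of wt replicates 1 to 5 and 32.3, 30.8, 28.9, 20.02 and 20.2 CPM in their EC. The Ts66Yah animals spanned 18.0 to 30.0 CPM in HIP, with a median of 26.5, and 17.8 to 32.1 CPM in EC, with a median of 23.8. The same 3 wt animals were high in both regions, and 11 of 11 animals lay on the same side of the region mean in HIP and in EC. The animals differed with F = 8.40 and adjusted p = 0.00534 (0.0141 in wt alone and 0.109 in Ts66Yah alone).

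*Ciart* (chr3:95878503-95882251, minus strand) had 10.2, 10.5, 9.49, 5.10 and 7.81 CPM in HIP of wt replicates 1 to 5, and 16.5, 18.1, 14.1, 8.98 and 16.4 CPM in their EC. In Ts66Yah it spanned 5.62 to 8.81 CPM in HIP and 11.7 to 15.0 CPM in EC. Wt replicate 4 again stood lowest in both regions, and the call rested on it. With all animals F was 5.87 (adjusted p = 0.0234), and without wt replicate 4 the adjusted p was 0.451. *Per3* spanned 22.9 to 48.5 CPM in HIP and 15.7 to 29.0 CPM in EC (F = 4.86, adjusted p = 0.0443), and *Dbp*, the albumin D-box binding factor, 19.6 to 41.1 CPM in HIP and 19.2 to 55.5 CPM in EC (F = 4.78, adjusted p = 0.0469). Both lay close to the threshold. When each animal was left out in turn *Per3* stayed past it in 5 of 11 fits and *Dbp* in 4 of 11, and without wt replicate 5, the animal with the most *Dbp* in both regions, the adjusted p of *Dbp* was 0.204.

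The remaining 4 genes did not pass in edgeR. DESeq2's likelihood ratio test called 9 of the 10 genes, adding *Nr1d2* (adjusted p = 0.00222), *Tef* (0.0131) and *Bhlhe41* (0.0247), and called 3388 genes in all against 1402 by edgeR. In edgeR *Nr1d2* came closest (F = 4.20, adjusted p = 0.0676), and was called when wt replicate 4 was left out (adjusted p = 0.0452). *Bhlhe41* (F = 3.16, adjusted p = 0.129) and the steadily expressed *Tef* (F = 3.09, adjusted p = 0.135) had an unadjusted p under 0.05 but did not pass after adjustment. *Nr1d1*, the gene of the receptor REV-ERB alpha, had the lowest F of the 10, 1.55 (adjusted p = 0.397, and 0.489 by DESeq2). Its levels ran from 84.2 to 120 CPM in HIP and from 113 to 151 CPM in EC. Within genotype its SD was 0.14 in HIP and 0.13 in EC on the log2 scale, at or below the median over all genes of 0.15 and 0.19, whereas those of *Per1* in EC and *Dbp* in EC were 0.44 and 0.45.

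The same question was put to the 2 regions directly, by the correlation over the 11 animals of a gene's log2 CPM in HIP with that in EC. *Per1* (Pearson r = 0.92, Spearman rho = 0.88) and *Arntl* (r = 0.82, rho = 0.88) passed a permutation test adjusted over 17232 genes, with adjusted p = 0.00500 and 0.0486 for r and 0.0427 and 0.0488 for rho. These 2 of 10 genes compare with 4.49% of all genes. At an unadjusted p under 0.05, 8 of the 10 genes passed, against 20.1% of all genes, and the median r was 0.72 over the 10 genes and 0.33 over all genes. *Tef*, *Per2*, *Nr1d2*, *Ciart*, *Per3* and *Bhlhe41* had r from 0.76 down to 0.61, with unadjusted permutation p from 0.00545 to 0.0482. *Dbp* had r = 0.57 (permutation p = 0.0679) and *Nr1d1* r = 0.06 (permutation p = 0.870). After each genotype's mean was removed, the median r of the 10 genes was 0.68, 5 of them had an exact permutation p under 0.05 against 15.9% of all genes, and none passed after adjustment, *Per1* coming closest (r = 0.93, adjusted p = 0.0619).

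**Figure D2:**
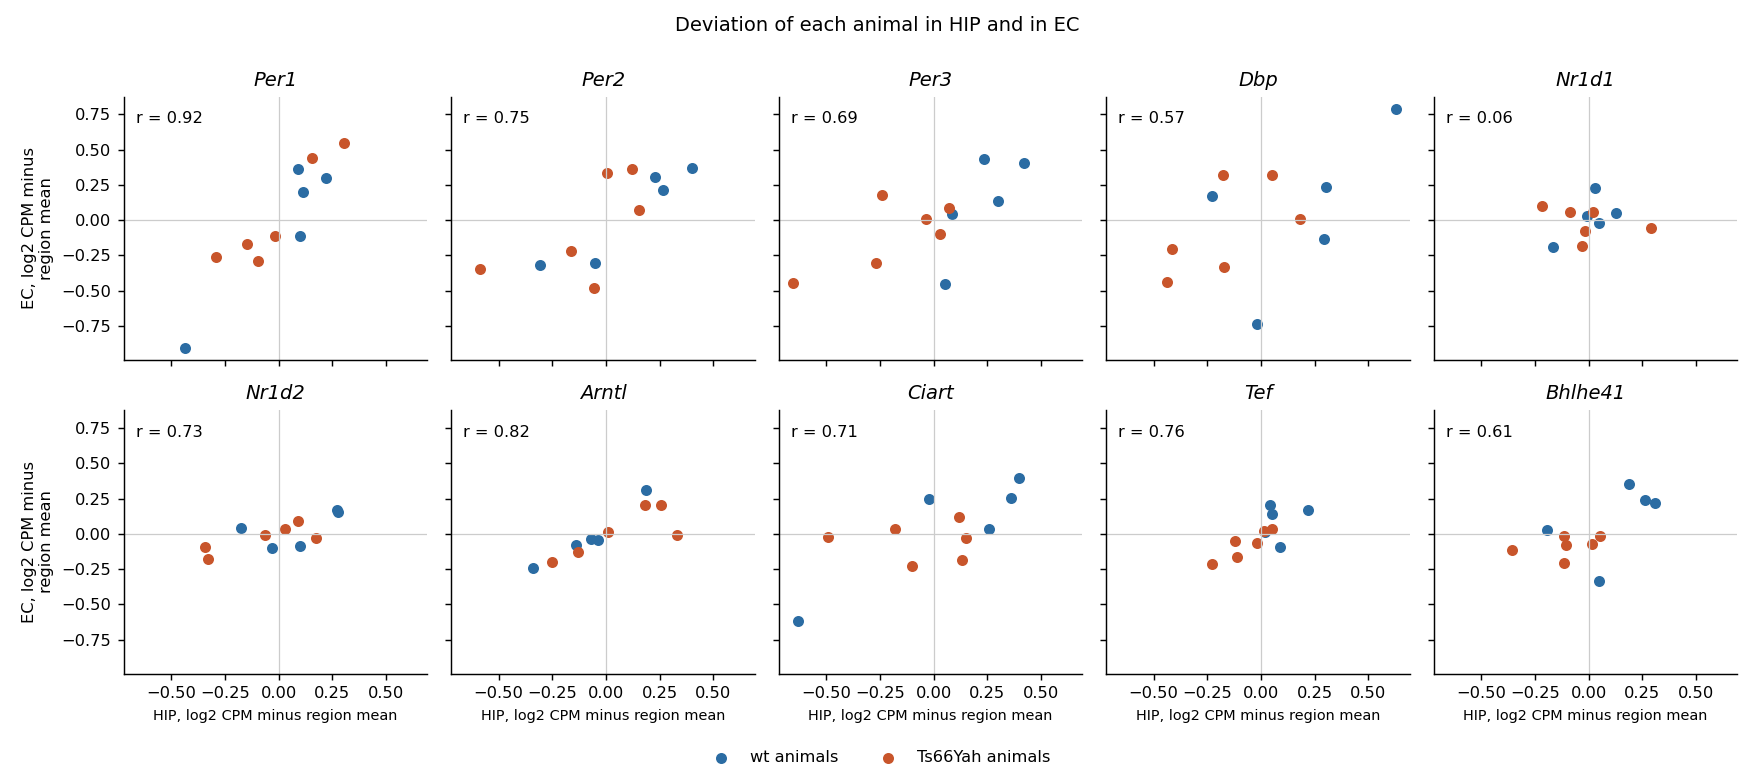
Deviation of every animal from the region mean, in log2 CPM, in HIP (horizontal) and in EC (vertical), 1 panel per gene with Pearson r over 11 animals. Points of *Per1* and *Arntl* run along a diagonal, with r of 0.92 and 0.82, and those of *Nr1d1* do not, with r of 0.06.

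The relation was examined without the 2 animals farthest from the median in HIP. It remained at r = 0.87 for *Per1* and reached 0.96 for *Arntl*, although with 9 animals neither passed after adjustment (adjusted p = 0.106 and 0.0567). It was 0.72 for *Per2*, 0.41 for *Per3* and 0.14 for *Dbp*, so that the relations of *Per3* and *Dbp* rested on wt replicate 1 and Ts66Yah replicate 2, and on wt replicate 5 and Ts66Yah replicate 2. For *Nr1d1* it was 0.54 without Ts66Yah replicates 5 and 6 (adjusted p = 0.543), against 0.06 with all animals, so that its low value rested on these animals. For *Arntl* the adjusted p was above 0.05 in 10 of the 11 fits that left out 1 animal, with r between 0.76 and 0.96, and the exception was the fit without Ts66Yah replicate 2. Animal numbers in the labels fell into a lower range (4 animals, wt replicates 2 and 3 and Ts66Yah replicates 5 and 6) and an upper range (6 animals, wt replicates 4 and 5 and Ts66Yah replicates 1 to 4), with wt replicate 1 in neither. Within the 6 animals of the upper range r was 0.83 for *Per1*, 0.70 for *Arntl*, 0.67 for *Per2*, 0.79 for *Dbp* and -0.37 for *Bhlhe41*. The 4 animals of the lower range were too few for a correlation.

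*Arntl* moved against the other 9 genes. Over the 22 libraries, with each region's mean removed, all 9 correlations of *Arntl* with another of the genes were negative (median -0.64, from -0.75 with *Nr1d2* to -0.22 with *Nr1d1*). All 36 correlations among the other 9 were positive (median 0.53), highest between *Per3* and *Tef* (0.84) and lowest between *Nr1d1* and *Tef* (0.17). Within regions, all 36 were positive in HIP and 33 in EC, where *Nr1d1* with *Nr1d2* (-0.16), *Dbp* with *Nr1d2* (-0.07) and *Per2* with *Nr1d1* (-0.04) were negative. *Arntl* was negative with all 9 in each region, but in EC its r with *Nr1d1* was -0.02. These values describe 22 libraries of 11 animals, which share animals, depth and base composition, and none were computed over pairs of other genes. The animals could therefore be ordered. Averaged over HIP and EC, the other 9 genes stood highest in wt replicate 1, at 0.24 above the region means on the log2 scale, followed by wt replicate 2 at 0.21 and wt replicate 3 at 0.17. *Arntl* was below its mean in the same 3 animals, by -0.29, -0.11 and -0.04. The 9 genes stood lowest in wt replicate 4, at -0.29, Ts66Yah replicate 2 at -0.26, Ts66Yah replicate 5 at -0.17 and Ts66Yah replicate 1 at -0.12. *Arntl* was above its mean in these 4 animals, by 0.25, 0.16, 0.23 and 0.19. The other 4 animals lay between, from 0.01 to 0.10 for the 9 genes, with *Arntl* from -0.23 to 0.01. Both ends of the order held wt animals. The order is one of means, and single genes departed from it. Of the 9 genes, those above the region mean in HIP and in EC numbered 9 and 7 in wt replicate 1 and 3 and 1 in wt replicate 4. They numbered 1 and 2 in Ts66Yah replicates 2 and 5, and 0 and 2 in Ts66Yah replicate 1. In Ts66Yah replicate 5 *Per1* lay above its region means, by 0.15 in HIP and 0.44 in EC.

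**Figure D3:**
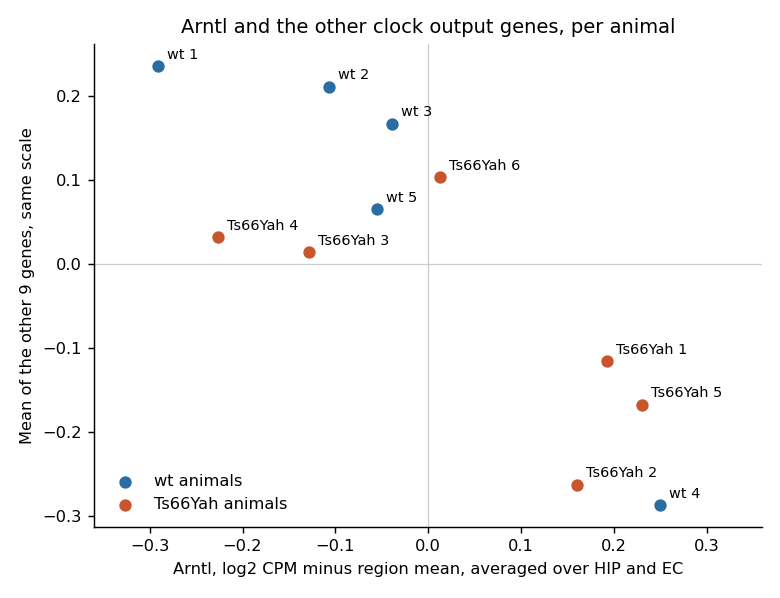
Each animal's *Arntl* deviation (horizontal) and the mean deviation of the other 9 genes (vertical), both in log2 CPM from the region mean and averaged over HIP and EC. Ts66Yah replicates 1, 2 and 5 and wt replicate 4 stand at the lower right, and wt replicates 1 to 3 at the upper left.

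*Dbp* and *Arntl* are 2 genes that peak at opposite times, and the ratio of their per-length levels (RPKM) does not depend on the scaling of a library. Because exon length enters it, the ratio does not show which gene had more reads. In HIP it ran from 1.24 in Ts66Yah replicate 2 and 1.33 in Ts66Yah replicate 5 to 3.28 in wt replicate 1 and 3.44 in wt replicate 5. In EC it ran from 1.25 in wt replicate 4 and 1.79 in Ts66Yah replicate 1 to 3.73 in Ts66Yah replicate 4 and 4.61 in wt replicate 5. Wt replicate 5 stood first in both regions. The genotypes overlapped in each. The GC contrast, which was lowest in EC of wt replicate 4 and highest in EC of wt replicate 5, moved with *Dbp* (r = 0.70 over 22 libraries, against 0.37 for *Per1* and -0.11 for *Arntl*). After the GC trend was removed from each library, *Dbp* in EC stood at -0.49 in wt replicate 4 and 0.51 in wt replicate 5 on the log2 scale, in place of -0.74 and 0.79. The test between animals then called 7 of the 10 genes, the same 6 and *Tef* (adjusted p = 0.0394), and *Dbp* kept its call (adjusted p = 0.0163). Over all genes it then called 1630, against 1402 before the correction.

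Beyond these 10 genes, differences between animals were not general among clock genes. Of 20 other clock genes, all tested, 2 were called (*Nfil3*, a repressor that competes with DBP and TEF for the D-box, adjusted p = 0.00103, and *Bhlhe40*, the paralogue of *Bhlhe41*, adjusted p = 0.0336), with a median F of 1.22. *Nfil3* ranged from 4.50 to 14.5 CPM in Ts66Yah EC and from 6.05 to 7.53 CPM in wt EC. *Bhlhe40* ranged from 75.8 to 161 CPM in Ts66Yah EC and from 65.4 to 113 CPM in wt EC. Other gene lists responsive to the state of the animal moved between animals too. Of 16 activity-regulated genes 15 were called (smallest p for *Egr2*, *Fos*, *Fosb*, *Npas4* and *Egr1*), and *Fos* spanned 5.504 to 24.0 CPM in wt EC and 7.03 to 77.3 CPM in Ts66Yah EC. Of 16 glucocorticoid-responsive genes 10 were called (*Nfkbia*, *Zbtb16*, *Pdk4*, *Hif3a* and *Tsc22d3* first), and of 12 heat- and cold-responsive genes 7 (*Hspa8*, *Rbm3*, *Hspa1b*, *Hsph1* and *Cirbp* first). Choroid plexus (4 of 7), erythroid (2 of 5) and microglial (2 of 7) markers were also called, and hippocampal, cortical, meningeal, striatal, oligodendrocyte and astrocyte markers were not (0 genes of each list). At an unadjusted p under 0.05, where 26.1% of all genes passed, meningeal markers had 6 of 7 and striatal markers 3 of 8. The hippocampal markers had 2 of 6, the cortical 0 of 6, the oligodendrocyte 1 of 7 and the astrocyte 1 of 6.

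**Figure D4:**
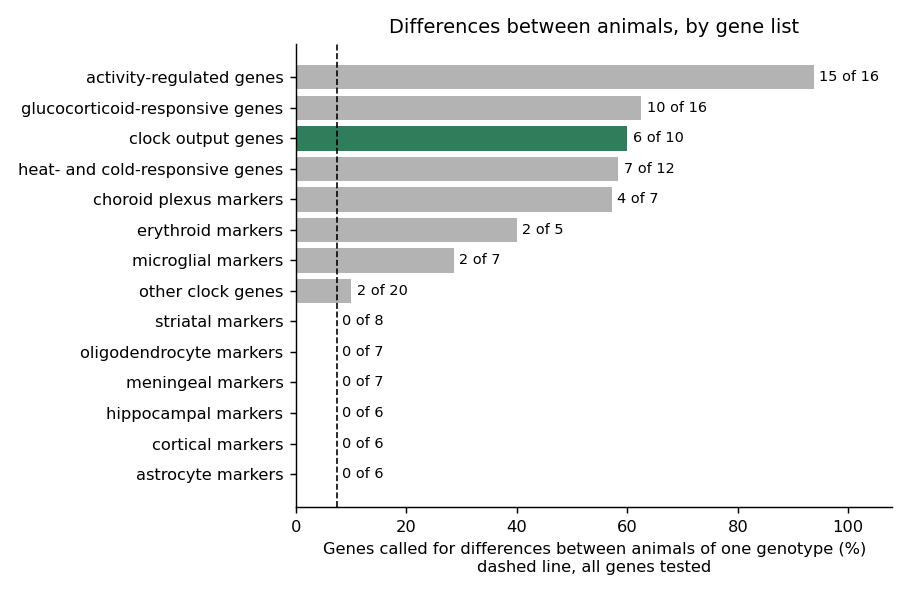
Percent of the genes of each list called for differences between animals of 1 genotype (edgeR, adjusted p under 0.05), with counts beside the bars and a dashed line at the 7.35% of all genes. The clock output genes, 6 of 10, lie beside the glucocorticoid-responsive (10 of 16) and the heat- and cold-responsive genes (7 of 12), below the activity-regulated genes (15 of 16) and above the other clock genes (2 of 20). The lists were chosen with earlier results of these data known.

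How these lists moved with the clock output genes differed from gene to gene. Over the 22 libraries, centred per region, the mean of the glucocorticoid-responsive genes had r = 0.59 with *Per1*, 0.04 with *Arntl* and 0.37 with the mean of the 9 genes other than *Arntl*. The activity-regulated genes had r = 0.36 with *Per1*, 0.49 with *Arntl* and -0.18 with the mean of the 9. The heat- and cold-responsive genes had r = -0.02, 0.60 and -0.41 in the same order. Among the cell type lists the oligodendrocyte markers stood highest, with r = 0.63 with *Per1*, -0.16 with *Arntl* and 0.47 with the mean of the 9. These 7 markers, none of them at 0, summed to 7376 to 10758 CPM in wt HIP, 7487 to 9812 in Ts66Yah HIP, 1436 to 3559 in wt EC and 1682 to 2961 in Ts66Yah EC. Single genes had larger r, and some of them went against their own list. *Bhlhe40* had r = 0.88 with *Per1*, and *Bdnf*, the neurotrophin gene, had 0.83 with *Arntl* and -0.69 with *Per3*. *Nfil3* had 0.71 with *Arntl*, where the mean of the other clock genes had -0.11. The cold-inducible *Rbm3* had 0.70 with *Per3* and -0.61 with *Arntl*, opposite in sign to the mean of the heat- and cold-responsive genes with *Arntl*. These 4 genes were picked after their values had been seen. The part of neuronal activity, glucocorticoids, temperature, choroid plexus and meningeal tissue and oligodendrocyte content in the differences between animals was not tested.

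Outside all lists, the gene most like the mean of the 9 genes was *Kansl3*, a subunit of a histone acetyltransferase complex, with r = 0.87 among 14926 genes averaging 1 CPM or more. The next were *Kcnt1* (0.84), *Sema4d* (0.84), *Klf15* (0.82), *Abl1* (0.82), *Eef2k* (0.81), *Ralgds* (0.81) and *Dapp1* (0.79). The 9 genes, each a part of that mean, ranked from 1 (*Per3*, r = 0.89) to 581 (*Nr1d1*, r = 0.53). *Per1* ranked 96 (r = 0.68) and *Dbp* 152 (r = 0.65), below all of the genes just named. *Klf15* encodes a Krüppel-like factor known to be rhythmic and responsive to glucocorticoids. At the other end stood *Ywhab* (-0.81), *Pdia3* (-0.81), *Morf4l2* (-0.80), *Hnrnpc* (-0.80) and *Nifk* (-0.80), and *Arntl* at -0.79. After the GC correction the 8 highest had r between 0.80 and 0.83 and the 5 lowest between -0.79 and -0.76. These are descriptions over 22 libraries of 11 animals, and the genes were ranked on them.

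Between genotypes, none of the 10 genes passed the test in either region, where 0.591% of 18452 genes were called in HIP and 0.283% of 17658 in EC (edgeR). In HIP 4 of the 10 had an unadjusted p under 0.05, against 11.9% of all genes, all 4 with a lower mean in Ts66Yah. This count rested on single animals, being 6 without wt replicate 4 and 2 without wt replicate 1 or Ts66Yah replicate 5. For fits without 1 animal, here and below, the share of all genes at an unadjusted p under 0.05 was not counted. *Per3* had 48.5, 42.5, 44.6, 37.5 and 38.4 CPM in wt replicates 1 to 5 and a lowest, median and highest value of 22.9, 32.9 and 38.0 CPM in Ts66Yah, so that the groups overlapped only slightly. Its log2 fold change was -0.39 (SE 0.114, 95% interval -0.61 to -0.16, edgeR adjusted p = 0.184), and DESeq2 called it at an adjusted p of 0.0472. *Dbp* followed at -0.37 (SE 0.146, adjusted p = 0.331), from 31.0 ± 7.06 CPM in wt (n = 5) to 24.0 ± 4.14 in Ts66Yah (n = 6), then *Bhlhe41* at -0.23 (SE 0.093, adjusted p = 0.331) and *Tef* at -0.15 (SE 0.056, adjusted p = 0.310). *Per2*, *Ciart* and *Nr1d2* stood at -0.20, -0.17 and -0.16, *Arntl* at 0.15 with an interval of -0.06 to 0.37, and *Per1* and *Nr1d1* near 0, at -0.04 and -0.01. The signs of *Per1* and *Nr1d1* in HIP turned positive after the GC correction (0.04 for both). The median over the 10 genes was -0.16, and over all genes 1.39e-05. The 10 genes were correlated with each other over the animals, so this median does not stand for 10 separate measurements.

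In EC 1 of the 10 genes had an unadjusted p under 0.05, against 6.25% of all genes, *Tef* at -0.16 (SE 0.069, adjusted p = 0.745). Without wt replicate 4 the count was 4, and it was 0 without wt replicate 1, 2 or 3 or Ts66Yah replicate 2 or 5. *Per3* (-0.23), *Bhlhe41* (-0.20), *Dbp* (-0.17), *Ciart* (-0.15), *Per2* (-0.10), *Nr1d2* (-0.07) and *Nr1d1* (-0.04) had lower means in Ts66Yah and *Per1* (0.03) and *Arntl* (0.03) did not, although *Nr1d1* stood at 0.0031 after the GC correction and *Arntl* at -0.02 with the number range as a block. The intervals were wide, -0.61 to 0.26 for *Dbp* and -0.40 to 0.45 for *Per1*, so that a difference in *Dbp* of the size measured in HIP lay inside its EC interval. With the libraries of each animal summed, 0 of the 10 passed (edgeR, and also DESeq2 and limma voom), where 0.573% of 20233 genes were called, and 3 of 10 had an unadjusted p under 0.05 against 10.3% of all genes. These 3 were *Per3* at -0.31 (adjusted p = 0.397), *Tef* at -0.15 (adjusted p = 0.345) and *Bhlhe41* at -0.21 (adjusted p = 0.439), and the count was 5 without wt replicate 4 and 1 without wt replicate 1 or 2. The genotype effect did not differ detectably between regions for any of the 10 genes. The largest difference, EC minus HIP, was that of *Dbp*, 0.23 with an interval of -0.12 to 0.58, no gene of the 10 had an unadjusted p under 0.05 by edgeR or DESeq2 (1 did without the filter on low counts), and 0% of the 19074 genes were called, with 3.81% at an unadjusted p under 0.05. Of the 20 other clock genes, 0 were called in HIP, EC or the sums by edgeR, with 6, 1 and 6 at an unadjusted p under 0.05.

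**Figure D5:**
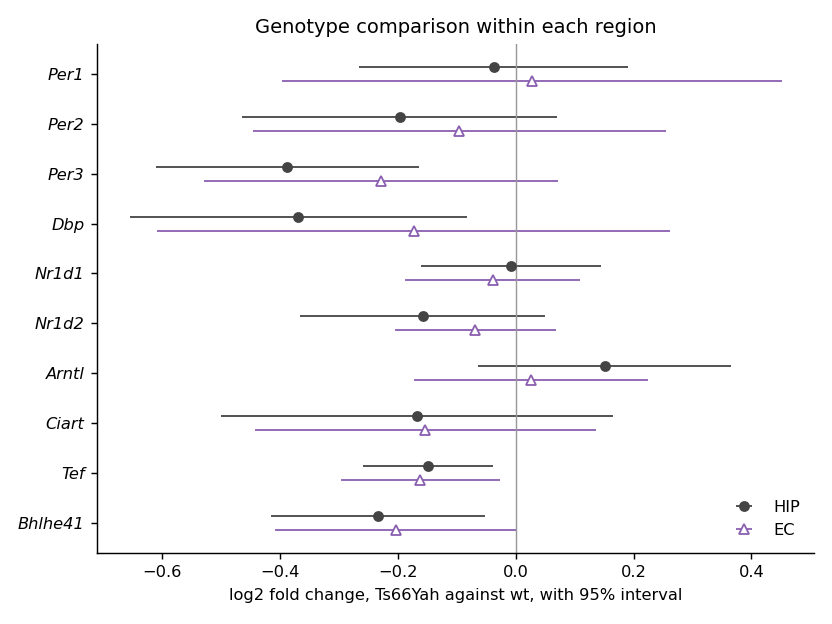
Log2 fold change of each clock output gene, Ts66Yah against wt, with its 95% interval, in HIP (filled circles) and EC (open triangles). Points of 8 of the 10 genes lie below 0 in both regions and that of *Arntl* lies above 0 in both. Both regions come from the same animals, and the share of all genes with the same sign in both was not counted. The sign of *Nr1d1* turned after the GC correction. With the number range as a block the signs of *Nr1d1* in HIP and of *Per2* and *Arntl* in EC turned. Every interval in EC except that of *Tef* spans 0.

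The genotypes were spread over both ranges of animal numbers, with 2 wt and 2 Ts66Yah animals in the lower and 2 wt and 4 Ts66Yah animals in the upper. Summed over regions, *Per1* was higher in the lower range by 0.50 on the log2 scale (SE 0.102), which did not pass after adjustment in edgeR (adjusted p = 0.208) and did in DESeq2 (adjusted p = 0.00223). All 4 animals of the lower range lay above the *Per1* region means, by 0.16 to 0.42 averaged over regions, and all 6 of the upper range below them, from -0.67 to -0.01. No other gene of the 10 had an unadjusted p under 0.05, where 9.16% of 20420 genes did and 0.0147% were called. Without Ts66Yah replicate 5 the number at an unadjusted p under 0.05 was 4 of the 10, and without Ts66Yah replicate 3 or 4 it was 2. The share of all genes in these fits was not counted. What the numbers stand for is not given in the labels. With this range kept as a block and without wt replicate 1, the log2 fold change of *Per3* between genotypes in HIP was -0.33 and that of *Dbp* -0.39.

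Several of the genes share sequence with a neighbour. *Dbp* overlaps *Sphk2* on the opposite strand by 539 exonic bases, *Nr1d1* overlaps *Thra* by 263, *Bhlhe41* overlaps the transcript Gm43909 by 1280, and *Tef* and *Arntl* overlap antisense transcripts by 193 and 33. Whether the counting used the strand is not given in the sources used here, so reads of these stretches may be missing from or added to the genes named. *Per1*, *Per2* and *Nr1d2* overlap no other annotated gene.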

How the data were processed

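Per the labels, libraries had been made with a TruSeq Stranded mRNA kit, whereas the study's methods name a TruSeq Stranded Total RNA kit with Ribo-Zero Gold, and which was used could not be settled here. They were sequenced as single-end 50-base reads on a HiSeq 4000. The authors aligned the reads with Hisat2 to GRCm38 (Ensembl 99) and counted them per gene with HTSeq-count, and the deposited counts are whole and not normalized. How strand and multi-mapping reads were handled is not given in the sources used here. Further deposited tables hold the authors' comparisons (fold changes, p-values) and were not used.

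The 10 genes and the gene lists were chosen with earlier results of these data known. All 10 genes are named. Of each other list, counts are given with at most 5 called genes of smallest p, and the genes most like the mean of the 9 genes are the 8 highest and 5 lowest by Pearson r. Further genes named for their correlation were chosen after their values were seen.

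Counts were tested with edgeR 4.0.16 (R 4.3.3; TMM, filterByExpr, quasi-likelihood F test), with p adjusted by Benjamini-Hochberg over all genes tested and a threshold of 0.05. Genotype was tested in HIP, in EC and in the sum of both libraries of an animal, and region with the animal as a block. The animal test took the residual between regions as its error. Correlations used log2 CPM with a prior count of 2 and 100000 permutations over 11 animals (exact within genotype), 2-sided. DESeq2 1.42.0, limma 3.58.1 voom, RLE size factors, other filters, blocks and leaving out each animal were alternatives, and a correction of each library for its GC trend was added after seeing the data. Replicates were separate mice, and no 2 libraries of a group agreed within sampling noise. Same-numbered wt and Ts66Yah animals had deviations correlated at 0.0175 to 0.197, so the number was taken as a name only, whereas HIP and EC libraries of an animal had 0.215 to 0.538. On simulated data the HIP genotype test (18260 genes) recovered 90% of 2-fold and 58% of 1.5-fold changes, and the animal test (18740 genes) 84% of genes given an animal SD of 0.5.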

Additional observations from a re-analysis of the deposited data

Results flagged for a closer look

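*Per1* in HIP of the wt animals stood apart in 1 of 40 groups of samples examined (10 genes in 2 regions and 2 genotypes). Wt replicate 4 had 51.2 CPM against a group median of 74.3, and its gap to the nearest animal was 0.802 of the group's whole range, above Dixon's critical value for 5 samples. Chance marks about 1 in 20 such groups.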

How the results depend on the processing

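Between genotypes, the count of the 10 genes called stayed at 0 in EC and in the sums under every alternative run, and in HIP it was 1 by DESeq2 (*Per3*) and 0 otherwise. With the replicate block, that is, pairing by a number that is only a name, it was 0 in all 3, and *Per1* in EC stood at -0.051 in place of 0.03. With the number range as a block, in 10 animals, log2 fold changes turned for *Per1* (0.063) and *Nr1d1* (0.026) in HIP and for *Per2* (0.062) and *Arntl* (-0.020) in EC, and genes with an unadjusted p under 0.05 fell to 2 in HIP, 0 in EC and 0 in the sums. After the GC correction *Per1* (0.040) and *Nr1d1* (0.042) turned in HIP and *Nr1d1* (0.0031) in EC. *Arntl* between regions was 0.043 in wt animals only. Leaving out 1 animal gave -0.13 to 0.014 for *Per1* and -0.071 to 0.033 for *Nr1d1* in HIP, and in EC -0.13 to 0.12 for *Per1*, -0.32 to 0.043 for *Dbp*, -0.081 to 0.015 for *Nr1d1* and -0.019 to 0.125 for *Arntl*. Leaving out 1 animal moved the number of the 10 genes at an unadjusted p under 0.05 to between 2 and 6 in HIP, 0 and 4 in EC and 1 and 5 in the sums. Calls after adjustment over all genes then ranged from 76 to 148 in HIP, 37 to 58 in EC and 79 to 126 in the sums. Genes called between animals numbered 6, and 9 by DESeq2, 8 without a filter, 3 in wt only, 1 in Ts66Yah only and 4 to 6 when 1 animal was left out. For the number range the count was 0, 1 by DESeq2 and 0 to 1 when 1 animal was left out (1 without wt replicate 5). Correlations called between HIP and EC numbered 2, but 0 within genotype, 4 after the GC correction, 0 in the upper number range, 0 without the 2 farthest animals and 1 to 2 when 1 animal was left out. *Bhlhe41* then had -0.37 in the upper range, and *Nr1d1* -0.19 to 0.25 when 1 animal was left out. The causes were not tested, beyond the smaller number of animals in several of these fits. Over all genes, HIP calls numbered 109, and 370 by DESeq2, 61 with the replicate block and 68 with the range block. EC calls numbered 50, and 109 by DESeq2 and 79 in 1 fit of all libraries. Calls in the sums numbered 116, and 349 by DESeq2, 67 with the replicate block and 210 with duplicateCorrelation. The genotype by region test called 0 genes, and 209 without a filter. The animal test called 1402, and 3388 by DESeq2, 3650 without a filter, 421 in wt only and 572 in Ts66Yah only. The number range called 3, and 143 by DESeq2 and 3 to 16 when 1 animal was left out.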
